A study of Mus musculus with 32 samples.

Results

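Acetylcholine in the striatum comes mainly from a sparse class of large aspiny interneurons, and 10 genes of this system were followed here out of the 23420 genes in the count tables. The cholinergic genes were *Chat*, *Slc18a3*, *Slc5a7*, *Ache* and *Lhx8*, and the receptors were the muscarinic receptors *Chrm1* to *Chrm5*. The genes were chosen by name, as the enzymes, transporters and transcription factor that mark cholinergic interneurons and the whole family of muscarinic receptors. All 10 passed the filter on low counts and were among the 15589 genes tested.

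Cholinergic interneurons make acetylcholine with choline acetyltransferase (*Chat*), load it into vesicles with the vesicular transporter (*Slc18a3*) and recover choline with the high-affinity transporter (*Slc5a7*). Acetylcholinesterase (*Ache*) degrades the released transmitter, and the LIM homeobox factor *Lhx8* directs the cholinergic fate in the developing forebrain and is retained in these cells. Of the receptors, those encoded by *Chrm1*, *Chrm3* and *Chrm5* couple to Gq, which activates phospholipase C. Those encoded by *Chrm2* and *Chrm4* couple to Gi and Go, which inhibit adenylyl cyclase and open potassium channels. *Chrm1* and *Chrm4* are known as the receptors of striatal projection neurons, *Chrm2* as the autoreceptor of cholinergic terminals, and *Chrm5* as a receptor of midbrain dopamine neurons.

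Striatal RNA was sequenced from 8 B6.D2 congenic mice (Line 4a), which carried 1 copy of a chromosome 11 segment from the D2 strain (DBA/2J) in an otherwise B6 (C57BL/6J) genome, and from 8 B6 littermates. All mice were naïve and, per the labels, about 50 days old, and 3 mm punches of both hemispheres were pooled for each mouse. The D2 segment holds many genes, so a difference between the groups belongs to the segment and not to 1 gene. The comparison asks whether expression in the striatum differs between genotypes, and none of the 10 genes lies on chromosome 11. Nothing in the sources used here ties mice of both groups into pairs.

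The count tables held 19032826 to 33748353 reads on genes for each mouse, and mice 1 to 4 of each group were run on lanes 5 and 6 and mice 5 to 8 on lanes 7 and 8. The striatal markers *Ppp1r1b*, *Drd2*, *Adora2a* and *Penk* were present in every mouse, with *Ppp1r1b* between 1052 and 1934 CPM (read counts scaled for library size with the trimmed mean of M values). Congenic mouse 1 stood apart from the other libraries. Reads with several alignments made up 27.3% of its reads, while no other mouse exceeded 21.4%, and its deviation from the median of the other mice of its genotype fell with exon length (Spearman's rho = -0.61 over 13420 genes, against -0.21 to 0.29 in the other mice). B6 mouse 8 stood apart to a smaller degree, with 11.3% of its reads outside annotated exons. Results that rest on congenic mouse 1 are therefore given with and without it. The labels give neither home cage nor sex. The paper states that each genotype held both females and males, but the sex of each mouse is unknown here and was not entered.

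*Chat* and *Slc18a3* form 1 locus on the minus strand of chromosome 14. On mm10 (GRCm38.p6, RefSeq) *Chat* spans chr14:32408203-32465909, and *Slc18a3* (chr14:32462437-32464850) lies wholly inside that span, its start 1059 bp downstream of the start of *Chat*. *Slc5a7* is at chr17:54273590-54299038, *Ache* at chr5:137288247-137294466 and *Lhx8* at chr3:154306288-154330560. The receptor genes are spread over chromosomes 19 (*Chrm1*), 6 (*Chrm2*), 13 (*Chrm3*) and 2 (*Chrm4* at chr2:91922189-91929835 and *Chrm5* at chr2:112478733-112536361). The 250 bases upstream of the RefSeq start site are printed for *Chat* and *Slc18a3*, which share a locus, and for *Lhx8* and *Ache*, the other members with the highest positive correlations with *Slc18a3* across the 16 mice. Each runs 5′ to 3′ on its gene's strand, and capitals mark TGACG (the core of the cyclic AMP response element) and GGGCGG (the GC box), on either strand, with overlapping matches counted.
Chat promoter (chr14:32465910-32466159, minus strand): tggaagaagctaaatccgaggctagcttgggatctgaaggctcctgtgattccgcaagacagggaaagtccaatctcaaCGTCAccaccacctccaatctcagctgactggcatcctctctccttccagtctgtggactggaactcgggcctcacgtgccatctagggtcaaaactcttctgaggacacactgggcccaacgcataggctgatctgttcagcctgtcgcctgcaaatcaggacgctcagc
Slc18a3 promoter (chr14:32464851-32465100, minus strand): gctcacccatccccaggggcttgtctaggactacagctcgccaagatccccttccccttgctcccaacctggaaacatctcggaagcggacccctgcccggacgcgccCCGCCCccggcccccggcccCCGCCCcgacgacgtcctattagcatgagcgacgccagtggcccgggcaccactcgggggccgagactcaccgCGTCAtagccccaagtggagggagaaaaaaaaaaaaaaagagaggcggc
Lhx8 promoter (chr3:154330561-154330810, minus strand): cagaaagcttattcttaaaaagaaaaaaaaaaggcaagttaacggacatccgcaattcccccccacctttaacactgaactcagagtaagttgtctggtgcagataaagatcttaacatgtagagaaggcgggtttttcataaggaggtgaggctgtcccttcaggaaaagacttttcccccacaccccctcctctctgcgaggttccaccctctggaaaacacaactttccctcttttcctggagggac
Ache promoter (chr5:137288004-137288253, plus strand): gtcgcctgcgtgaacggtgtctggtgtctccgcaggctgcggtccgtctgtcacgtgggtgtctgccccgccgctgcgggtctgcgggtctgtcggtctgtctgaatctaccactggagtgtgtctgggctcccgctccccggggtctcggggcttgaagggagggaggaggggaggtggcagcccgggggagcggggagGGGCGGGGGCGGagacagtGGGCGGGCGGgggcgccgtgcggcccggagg

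Among the 27025 promoters of RefSeq on this build, 17.9% held TGACG and 32.9% held GGGCGG in the same window. TGACG was found in *Chat* and *Slc18a3*. GGGCGG was found 2 times in *Slc18a3*, 4 times in *Ache*, 3 times in *Chrm4* and 1 time in *Chrm2*. The TATA box letters TATAAA, present in 3504 of the promoters, were found in *Slc5a7* alone of the 9 members with an entry. The homeodomain core TAATTA, present in 4.9%, was found in *Chrm5* alone. The *Chrm5* window (chr2:112480818-112481067) lay inside the span of the gene given above, not upstream of it. The *Chrm3* window (chr13:10360804-10361053) likewise lay inside its gene's span, which ends at base 10361062. The *Chrm2* window ended at base 36388083, past the start of its gene's span at base 36387991. The *Ache* window ended at base 137288253, just past the start of its gene's span. On the minus strand, the *Slc5a7* window began at base 54299035, just inside the end of its gene's span. *Lhx8* and *Chrm3* held none of these 4 motifs. *Chrm1* had no entry.

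Per length, the receptors of projection neurons were the most abundant members. In B6 mice, levels as CPM per kilobase of annotated exon (RPKM) were 39.5 ± 4.69 (SD, n = 8) for *Chrm4* and 25.6 ± 2.07 (SD, n = 8) for *Chrm1*. *Ache* followed at 19.1 ± 2.52 RPKM. The exons of *Chrm4*, *Chrm1* and *Chrm2* overlap those of *Mdk*, a 7SK gene and *9330158H04Rik* on the opposite strand, and because the authors counted without strand, reads of such partners cannot be told apart there.

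The genes that define the interneuron lay lower on the RPKM scale. *Slc5a7* was at 8.53 ± 0.771 RPKM and *Chat* at 8.05 ± 0.755 RPKM in B6 mice, which did not differ beyond their spread. *Slc18a3* was at 4.17 ± 0.573 RPKM over its RefSeq span, and *Lhx8* at 3.52 ± 0.533 RPKM, again within the spread of each other. *Chrm3* stood at 9.09 ± 0.485 RPKM and *Chrm5* at 0.249 ± 0.0991 RPKM, but the annotation gives each of them a single short model (1949 and 1746 bp), so their places in this order are unreliable. *Chrm2* was at 0.911 ± 0.129 RPKM, far below *Chrm1* and *Chrm4*. In congenic mice the order was the same except for *Chrm3*, which at 7.43 ± 1.44 RPKM lay below *Chat* at 8.64 ± 1.57 RPKM.

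**Figure D1:**
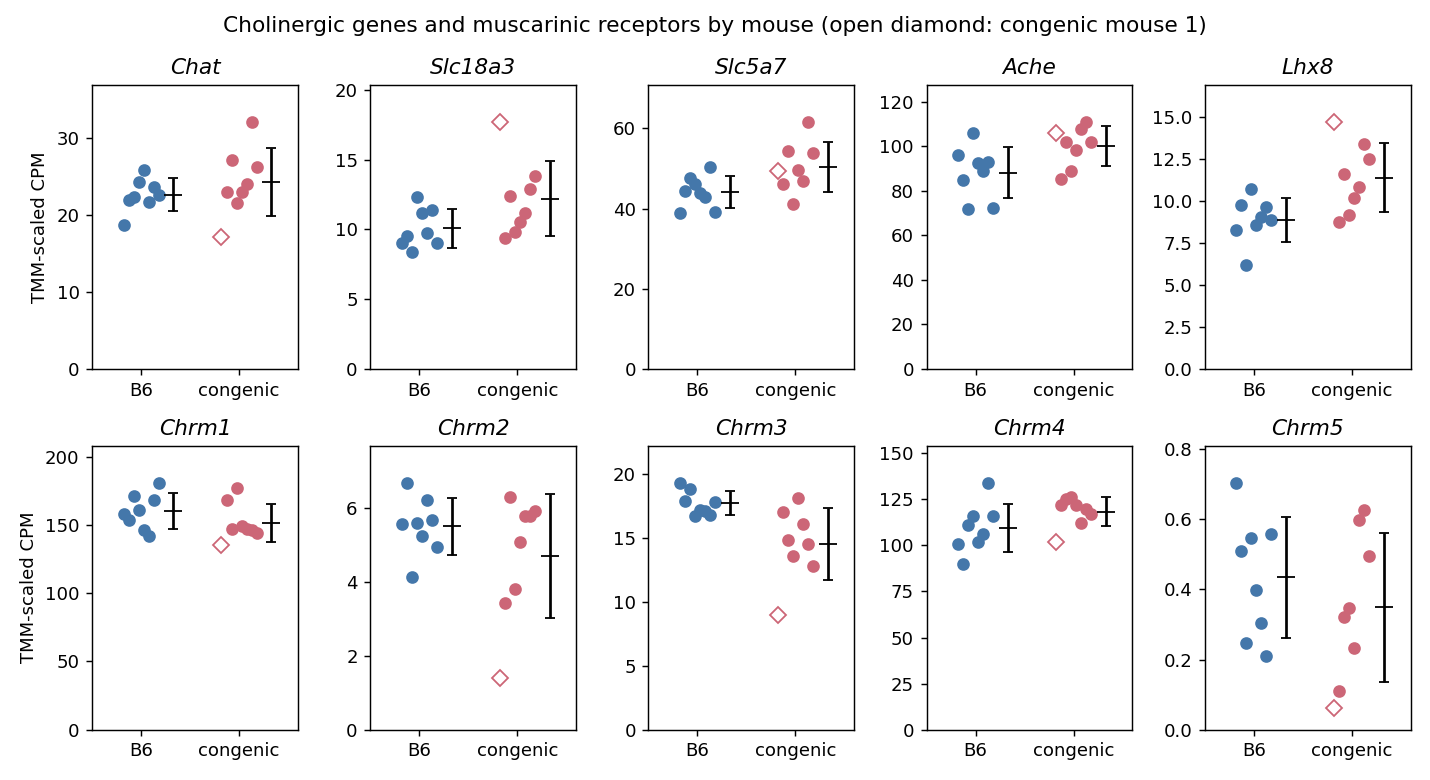
TMM-scaled CPM of the 10 members (y axes, from 0) in each of 8 B6 and 8 congenic mice (points, in order of mouse number from left to right), with the mean and SD of each group as black bars. Congenic mouse 1, the open diamond, is the highest mouse for *Slc18a3* and *Lhx8* and the lowest for *Chat*, *Chrm1*, *Chrm2*, *Chrm3* and *Chrm5*.

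No member passed an FDR of 5% between the genotypes, and the 5 interneuron genes and *Chrm4* had log2 fold changes above 0. With edgeR's quasi-likelihood test, 0 of 10 members passed, and 0 passed with edgeR's likelihood ratio test or with DESeq2. Over all genes 0.00641% passed, which was 1 of 15589. At an unadjusted p under 0.05, 4 members were higher in congenic mice, beside 4.86% of all genes, and 1 was lower, beside 5.14% of all genes. The 4 were *Slc18a3*, *Slc5a7*, *Ache* and *Lhx8*, and the 1 was *Chrm3*. Without B6 mouse 3 or without B6 mouse 8, the count of higher members was 2. The median log2 fold change (congenic against B6) was 0.11 over the 10 members and 0.01 over all genes tested. The 2 groups of mice overlapped in every member, and over all genes 0.0577% did not overlap. A difference in bulk tissue may be one in the number of cells of a type or in RNA per cell, and the 2 cannot be told apart.

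*Lhx8* had the smallest p of the 10. Its level ran from 6.18 CPM in B6 mouse 3 over a median of 8.94 CPM to 10.7 CPM in B6 mouse 4, and in congenic mice from 8.72 over 11.2 to 14.7 CPM. Of 8 congenic mice, 5 lay above every B6 mouse and 7 above the B6 median. The log2 fold change was 0.36 ± 0.12 (SE), or 1.28-fold, with an adjusted p of 0.385 by edgeR. With congenic mouse 1, which held the highest value, left out, it was 0.30 ± 0.11 with an edgeR adjusted p of 0.276. Within the lane pairs it was 0.34 on lanes 5 and 6 and 0.38 on lanes 7 and 8.

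*Slc18a3* ranged from 8.37 to 12.3 CPM in B6 mice, with a median of 9.62 CPM, and from 9.38 to 17.7 CPM in congenic mice, with a median of 11.8 CPM. Congenic mouse 1 alone held 17.7 CPM, and the next congenic mouse was at 13.8 CPM. The log2 fold change of 0.28 ± 0.12 (SE; edgeR adjusted p = 0.463) became 0.18 ± 0.10 without that mouse, when the unadjusted p no longer fell below 0.05. It was 0.33 and 0.23 within the 2 lane pairs.

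*Slc5a7*, the choline transporter, ran from 38.8 over 44.1 to 50.4 CPM in B6 mice and from 41.1 over 49.4 to 61.6 CPM in congenic mice, of which 7 of 8 exceeded the median of B6 mice. The log2 fold change was 0.19 ± 0.07 (SE; edgeR adjusted p = 0.436) with all mice and 0.19 ± 0.07 without congenic mouse 1. *Ache* ran from 72.1 over 90.7 to 106 CPM in B6 mice and from 85.5 over 102 to 111 CPM in congenic mice. Its log2 fold change was 0.18 ± 0.08 (SE; edgeR adjusted p = 0.461) and 0.17 ± 0.08 without congenic mouse 1. On lanes 5 and 6 the differences of both genes were smaller (log2 0.11 for *Slc5a7* and 0.09 for *Ache*) than on lanes 7 and 8 (0.26 and 0.27). The term for a genotype difference that depends on the lane pair had an edgeR adjusted p of 0.950 for each of them.

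*Chat* itself, the synthetic enzyme, gave a smaller difference. B6 mice held 18.7 to 25.9 CPM with a median of 22.4 CPM, and congenic mice 17.1 to 32.1 CPM with a median of 23.6 CPM. The 3 highest mice of all 16 were congenic, and so was the lowest, congenic mouse 1. The log2 fold change was 0.10 ± 0.10 (SE; edgeR adjusted p = 0.723), and 0.16 ± 0.08 without congenic mouse 1 (edgeR adjusted p = 0.377). It was 0.04 without congenic mouse 7, which held the highest value, 0.03 on lanes 5 and 6 and 0.16 on lanes 7 and 8. In congenic mouse 1 alone, *Chat* was the lowest of all mice while *Slc18a3*, inside the same locus, was the highest.

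**Figure D2:**
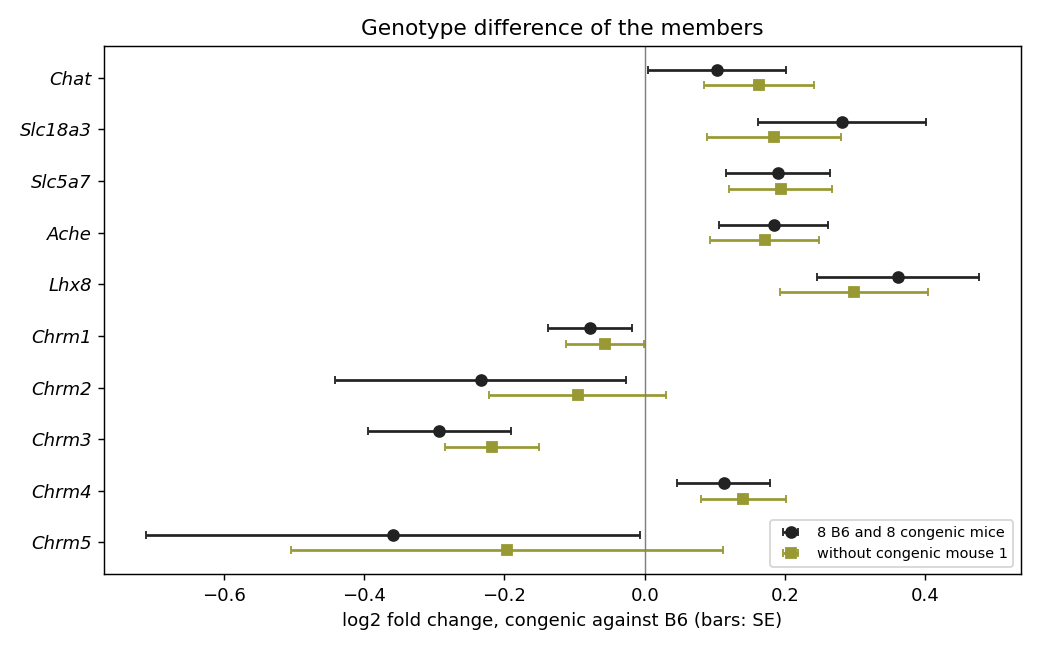
Log2 fold change of each member, congenic against B6 (x axis), with bars of 1 SE, from all 16 mice (circles) and without congenic mouse 1 (squares). The 5 interneuron genes and *Chrm4* lie above 0 and *Chrm1*, *Chrm2*, *Chrm3* and *Chrm5* below 0 with either set of mice, and none passed an FDR of 5%.

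*Chrm3*, a Gq-coupled receptor, had the tightest values of any member in B6 mice. They lay between 16.7 and 19.3 CPM with a median of 17.5 CPM, a coefficient of variation of 5.33%. Congenic mice ran from 9.00 CPM in mouse 1 over a median of 14.6 to 18.1 CPM, and 6 of 8 lay below every B6 mouse. The log2 fold change was -0.29 ± 0.10 (SE; edgeR adjusted p = 0.400), and -0.22 ± 0.07 without congenic mouse 1 (edgeR adjusted p = 0.236). It was -0.42 on lanes 5 and 6, which include that mouse, and -0.17 on lanes 7 and 8.

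*Chrm1* lay between 142 and 181 CPM in B6 mice and between 135 and 177 CPM in congenic mice, with medians of 159.7 and 147 CPM. The ranges overlapped, 6 of 8 congenic mice lay below the B6 median, and the log2 fold change was -0.08 ± 0.06 (SE; edgeR adjusted p = 0.660). The authors, whose model included home cage, reported *Chrm1* among the downregulated signalling genes of Line 4a. Home cage is not in the labels and could not be entered here. *Chrm4* ran from 90.0 to 134 CPM in B6 mice and from 102 to 126 CPM in congenic mice, and 7 of these lay above the median of B6 mice, 108 CPM. The log2 fold change was 0.11 ± 0.07 (SE; edgeR adjusted p = 0.578). Leaving out congenic mouse 1, the lowest of its group, gave 0.14 ± 0.06, which had an unadjusted p under 0.05 and an edgeR adjusted p of 0.339.

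Of the scarce receptors, *Chrm2* depended most on congenic mouse 1, while *Chrm5* moved with other mice about as much. *Chrm2* was at 4.13 to 6.69 CPM in B6 mice and at 1.41 to 6.30 CPM in congenic mice, where mouse 1 held 1.41 CPM and the next mouse 3.43 CPM. Its log2 fold change moved from -0.23 ± 0.21 (SE; edgeR adjusted p = 0.704) to -0.10 ± 0.13 without that mouse. It was -0.57 on lanes 5 and 6 and 0.03 on lanes 7 and 8. *Chrm5* had 2 to 24 reads per mouse, so counting error is large. It lay at 0.210 to 0.704 CPM in B6 mice and 0.0627 to 0.627 CPM in congenic mice, a log2 fold change of -0.36 ± 0.35 (SE; edgeR adjusted p = 0.733). Without congenic mouse 1 it was -0.20 ± 0.31, and without congenic mouse 2 or B6 mouse 1 it was -0.23 or -0.22. It was -1.29 on lanes 5 and 6 and 0.34 on lanes 7 and 8, and the term for the difference between lane pairs had an edgeR adjusted p of 0.950.

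Leaving congenic mouse 1 out kept the count of members at an unadjusted p under 0.05 at 4 higher and 1 lower, beside 5.82% and 7.54% of all genes, while 0.0256% of genes and 0 members passed an FDR of 5%. The 4 higher were then *Slc5a7*, *Ache*, *Lhx8* and *Chrm4*, with *Chrm4* in the place of *Slc18a3*. The median over the members was 0.15 on the log2 scale, and over all genes it was -0.0009.

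Genes of the wider cholinergic system gave counts of the same order. Over all genes, 4.86% were higher and 5.14% lower at an unadjusted p under 0.05. The median log2 fold change of 9 genes for the handling of acetylcholine and choline was 0.08. Of the 9, 0 were lower at that limit and 2 higher. These were *Slc44a2*, a choline transporter-like protein, at 60.5 ± 4.48 CPM in B6 and 66.2 ± 2.00 CPM in congenic mice (SD, n = 8), and *Slc10a4*, a transporter of cholinergic vesicles, with a log2 fold change of 0.23 ± 0.10 (SE; edgeR adjusted p = 0.476). With that 1 mouse, congenic mouse 1, left out, the 2 were *Slc44a2* and *Prima1*, the membrane anchor of acetylcholinesterase, and *Slc10a4* had a log2 fold change of 0.14. The count was 1 when B6 mouse 1, 2, 3, 7 or 8 or congenic mouse 3 or 7 was left out. Of 8 other genes of cholinergic interneurons, 2 were higher and 0 lower, beside the same shares of all genes, with a median of 0.03. Among those higher, *Nkx2-1*, a transcription factor of the medial ganglionic eminence, had a log2 fold change of 0.32 ± 0.12 (SE; edgeR adjusted p = 0.437). Leaving out B6 mouse 1, 2, 3 or 6 or congenic mouse 3, 5, 7 or 8 made that count 1.

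Nicotinic receptor subunits went either way. Of 16 subunits, 10 passed the filter, with a median log2 fold change of -0.12. At an unadjusted p under 0.05, 1 was higher and 1 lower, beside 4.86% and 5.14% of all genes. *Chrnb4* was at 0.677 ± 0.142 CPM in B6 and 1.01 ± 0.213 CPM in congenic mice (SD, n = 8), and *Chrna5* at 1.12 ± 0.340 and 0.767 ± 0.210 CPM (SD, n = 8). Both are scarce, with 15 to 36 and 12 to 47 reads per mouse. Their log2 fold changes were 0.59 ± 0.16 (SE; edgeR adjusted p = 0.331) and -0.55 ± 0.20 (SE; edgeR adjusted p = 0.407), and both had the same sign in each lane pair. A second subunit was higher without B6 mouse 6, and a second lower without congenic mouse 1, 2 or 5. The 6 subunits that did not pass, *Chrna6*, *Chrna9*, *Chrna10*, *Chrnd*, *Chrne* and *Chrng*, had at most 10 reads in any mouse.

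Downstream of the receptors, 18 genes of muscarinic signalling had a median log2 fold change of -0.09. Beside 4.86% and 5.14% of all genes, 0 were higher and 3 lower at an unadjusted p under 0.05. These were *Kcnj6* (log2 fold change -0.62 ± 0.21, SE) and *Kcnj3* (-0.41 ± 0.15, SE), subunits of the potassium channels that Gi-coupled receptors open, and *Prkca* (-0.23 ± 0.09, SE), a protein kinase C. The edgeR adjusted p-values were 0.397, 0.422 and 0.445. Markers of cortex were also lower in congenic mice, but whether they varied with these 3 genes from mouse to mouse was not tested. With a score of those markers as a covariate, 0 of the 18 were lower at that limit. The log2 fold changes were then -0.11, -0.25 and -0.12 for the 3 (edgeR unadjusted p = 0.668, 0.258 and 0.370). The score itself differed between the genotypes, so the covariate also takes up difference of genotype and this fit cannot separate them. Without the covariate and without congenic mouse 1, the counts were 1 higher and 6 lower, beside 5.82% and 7.54% of all genes. They were 0 higher and 5 lower without congenic mouse 7. None of these lists held a gene at an FDR of 5% with edgeR's quasi-likelihood test.

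**Figure D3:**
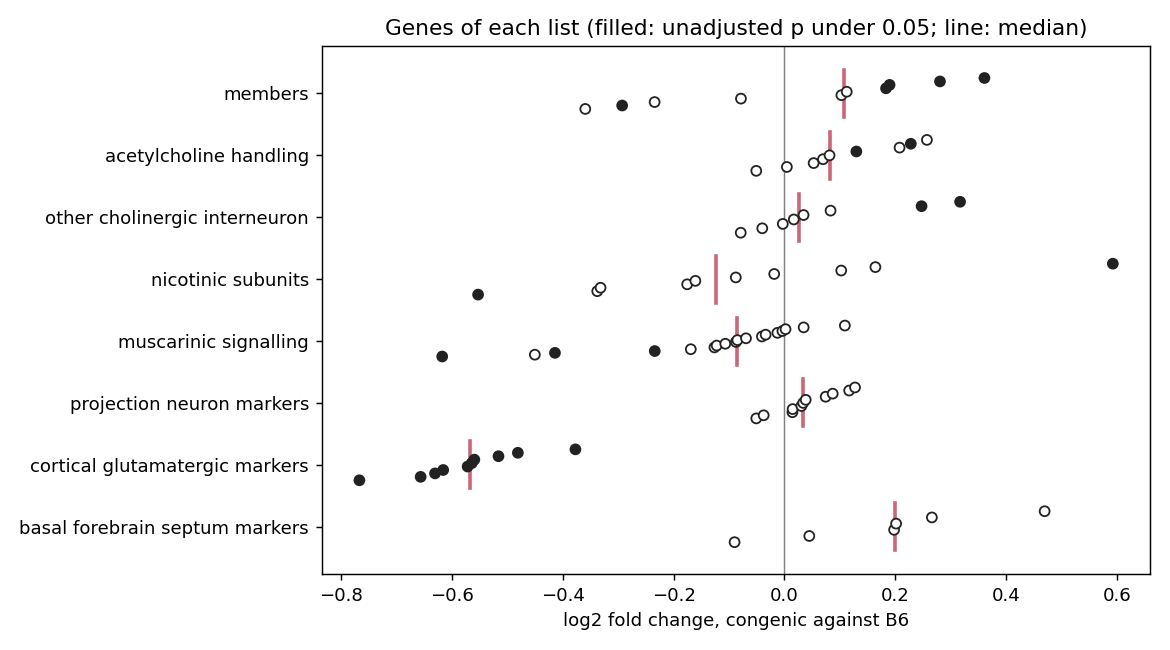
Log2 fold change (x axis, congenic against B6) of each tested gene of 8 lists (rows), filled where the unadjusted p was under 0.05, with the median of each list as a red line. All 10 cortical markers lie below 0 and are filled, with a median of -0.57, while the 10 members have a median of 0.11.

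Markers of cortex moved with the genotype. The 10 markers were those of cortical glutamatergic neurons, which lie above the striatum and are not striatal cells. All 10 were lower in congenic mice at an unadjusted p under 0.05, beside 5.14% of all genes. Their median log2 fold change was -0.57. *Slc17a7*, the vesicular glutamate transporter of these cells, was at 415 ± 81.9 CPM in B6 and 268 ± 82.2 CPM in congenic mice (SD, n = 8). The summed level of the 10 markers was 528 to 873 CPM in B6 and 325 to 759 CPM in congenic mice, and no marker was at 0. On lanes 5 and 6 alone, 6 of the 10 markers were lower at an unadjusted p under 0.05. The list was chosen with earlier results of these data known. The paper had already named *Slc17a7* and *Neurod6* in a network of mainly downregulated genes from these mice. The count of 10 is thus not independent of these data. Of 11 tested markers of striatal projection neurons, 0 were higher or lower (median 0.03), though 2 were higher without B6 mouse 8. Of 6 markers of the basal forebrain and septum, where other cholinergic neurons lie, 0 were higher or lower, with a median of 0.20, and 1 was higher without B6 mouse 6 or without congenic mouse 2. Their summed level was 22.0 to 46.9 CPM in B6 and 30.2 to 51.4 CPM in congenic mice, and among them *Ngfr* had a log2 fold change of 0.47 ± 0.27 (SE; edgeR adjusted p = 0.564). Markers of oligodendrocytes, hypothalamus and choroid plexus gave 0 in either direction, although 1 oligodendrocyte marker was higher without B6 mouse 1, 4 or 7 or congenic mouse 2. The median log2 fold changes of these 3 lists were 0.11, -0.14 and 0.20, and all 8 oligodendrocyte markers lay above 0. Without congenic mouse 1 the medians were 0.04, -0.05 and 0.26. A median above 0 was thus not particular to the members. Of 6 astrocyte markers, *Gjb6* was higher, beside 4.86% of all genes, but not without B6 mouse 1, 3, 6, 7 or 8 or congenic mouse 1 or 6.

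A cortical score, the mean standardized log2 CPM of the 10 markers, went with the interneuron genes. Its markers were picked with earlier results of these data known. With the score as a covariate, the log2 fold change was 0.09 for *Lhx8*, 0.03 for *Slc18a3*, 0.04 for *Slc5a7*, 0.01 for *Ache* and -0.15 for *Chrm3*. Then 0 members were higher and 0 lower at an unadjusted p under 0.05 with edgeR's quasi-likelihood test. At an FDR of 5%, 0 passed. *Chrm2* had -0.58 in that fit (edgeR unadjusted p = 0.0576). Without congenic mouse 1 the covariate fit gave *Chrm2* -0.38, and its edgeR unadjusted p of 0.0294 fell below that limit. No other member did, with -0.01 for *Lhx8*, -0.12 for *Slc18a3*, 0.04 for *Slc5a7*, -0.01 for *Ache* and -0.04 for *Chrm3*. In the covariate fit with all 16 mice, the lists for acetylcholine handling and for other interneuron genes also held 0 higher and 0 lower. The nicotinic list held 1 higher and 0 lower. *Chrnb4* kept a log2 fold change of 0.60 (edgeR unadjusted p = 0.0153), while *Chrna5* was at -0.08. The score itself differed between the genotypes, so the covariate also takes up difference of genotype, and the 2 cannot be told apart in this fit.

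**Figure D4:**
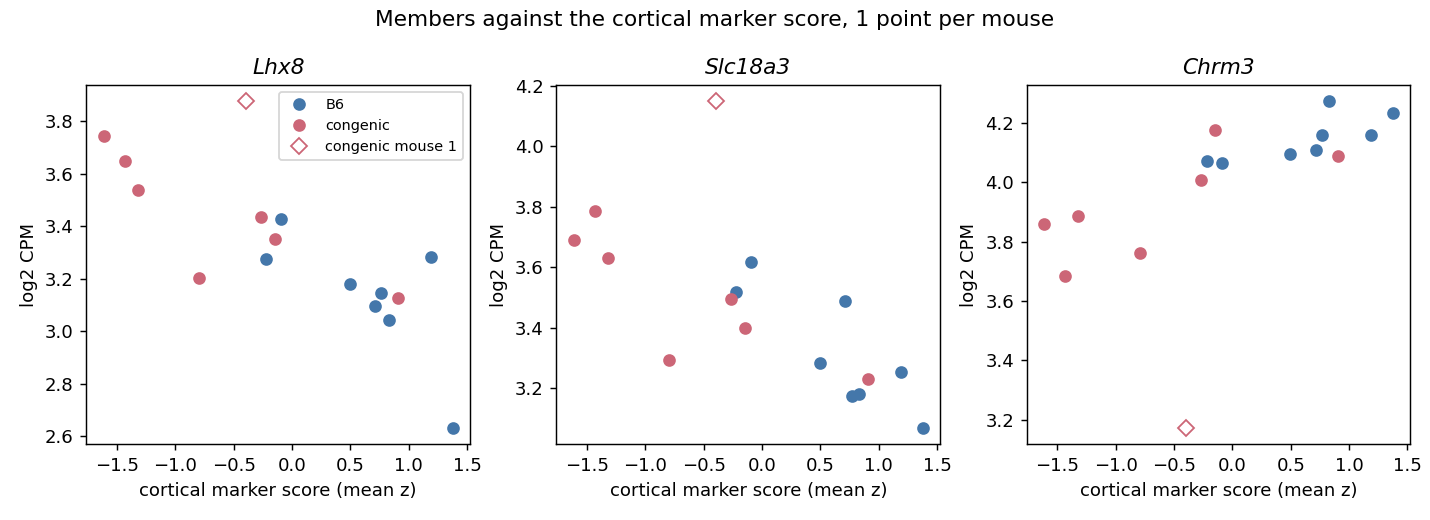
Log2 CPM of *Lhx8*, *Slc18a3* and *Chrm3* (y axes) against the cortical marker score (x axis, mean of standardized values) in 8 B6 and 8 congenic mice, 1 point per mouse. *Lhx8* and *Slc18a3* are lower and *Chrm3* higher where the score is higher, and congenic mouse 1, the open diamond, lies off the trend in the panels of *Slc18a3* and *Chrm3*.

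Across the 16 mice, 7 of 70 pairs of a member and a marker score were correlated at a Benjamini-Hochberg adjusted permutation p under 0.05. *Lhx8* fell as the cortical score rose (Pearson's r = -0.78, permutation p = 0.00031, adjusted p = 0.0109; Spearman's rho = -0.80, permutation p = 0.00037). The value was -0.84 without congenic mouse 1, -0.68 without the 2 mice farthest from the median score, and -0.67 and -0.98 within the 2 lane pairs. With *Slc18a3* the score had r = -0.69 (adjusted permutation p = 0.0315) and rho = -0.84 (permutation p = 8e-05), and r = -0.83 without congenic mouse 1. *Ache* (r = -0.72) and *Slc5a7* (r = -0.69) had adjusted permutation p-values of 0.0238 and 0.0357, with rho at -0.76 and -0.59 (permutation p = 0.00108 and 0.0174). For *Chat* r was -0.50 (adjusted permutation p = 0.173), and -0.69 without congenic mouse 1 (adjusted permutation p = 0.0249). *Chrm3* went the other way, at r = 0.61 over 16 mice (adjusted permutation p = 0.0586), rho = 0.84 (permutation p = 6e-05), and r = 0.86 over the 15 without congenic mouse 1 (adjusted permutation p = 0.0014). Without B6 mouse 3 and congenic mouse 7, the farthest from the median score, r was -0.62 for *Slc18a3*, -0.60 for *Ache*, -0.69 for *Slc5a7*, -0.33 for *Chat* and 0.59 for *Chrm3*. On lanes 5 and 6 these 5 values were -0.63, -0.68, -0.38, -0.24 and 0.62, and on lanes 7 and 8 -0.87, -0.76, -0.94, -0.74 and 0.86. The genotypes had different means of the score and of these genes, and after centring each genotype on its mean r was -0.63 for *Lhx8*, -0.57 for *Slc18a3*, -0.59 for *Ache* and -0.53 for *Slc5a7*, with adjusted permutation p-values of 0.101, 0.127, 0.109 and 0.184, so that none of the 4 passed. Centred and without congenic mouse 1, *Lhx8* (r = -0.75, adjusted permutation p = 0.0192) and *Slc18a3* (r = -0.82, adjusted permutation p = 0.0049) passed, while *Ache* and *Slc5a7* had adjusted permutation p-values of 0.0783 and 0.147. All these values share the library and its composition, and the part of composition in the correlations was not tested.

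*Ache* also rose with the basal forebrain score (r = 0.86, adjusted permutation p = 0.0063, rho = 0.64, permutation p = 0.00975) and the hypothalamus score (r = 0.67, adjusted permutation p = 0.0438, rho = 0.73, permutation p = 0.00201). *Lhx8* had r = 0.66 with the basal forebrain score (adjusted permutation p = 0.0502), and 0.69 without congenic mouse 1 (adjusted permutation p = 0.0249). Centred and without that mouse, *Lhx8* had r = 0.66 (adjusted permutation p = 0.0496). *Slc18a3*, *Slc5a7* and *Chat* had r = 0.54, 0.36 and 0.12 with that score over 16 mice (adjusted permutation p = 0.145, 0.369 and 0.847). *Chrm1* fell with the basal forebrain score (r = -0.72, adjusted permutation p = 0.0238, rho = -0.65, permutation p = 0.00762). Without the 2 mice farthest from the median of the basal forebrain score, B6 mice 3 and 8, the values were 0.62 for *Ache* and -0.57 for *Chrm1*. Within the lane pairs *Ache* gave 0.90 and 0.83 with the basal forebrain score and 0.69 and 0.75 with the hypothalamus score, and *Chrm1* -0.60 and -0.85. After centring, *Ache* with these 2 scores was all that passed of the 70 pairs (r = 0.86 and 0.74, adjusted permutation p = 0.0049 and 0.0329), and *Chrm1* had -0.69 (adjusted permutation p = 0.0821). The number that passed was 10 when centred without congenic mouse 1. Without centring it was 12 of 70 without that mouse, among them *Chrm4* with the score of projection neurons at r = 0.66 (adjusted permutation p = 0.0491).

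Most interneuron genes varied together from mouse to mouse. Of the 45 pairs of members, 6 were positively and 5 negatively correlated over 16 mice at a Benjamini-Hochberg adjusted permutation p under 0.05. *Slc18a3* and *Lhx8* gave the highest r, 0.89 (permutation p = 1e-05, the smallest the resampling could give, adjusted p = 0.00045), with rho = 0.88 (permutation p = 1e-05). The value was 0.87 without congenic mouse 1, 0.86 after centring each genotype on its mean, 0.85 without the 2 mice farthest from the median, and 0.92 and 0.81 within the lane pairs. *Ache* followed both, with r = 0.80 for *Lhx8* (adjusted permutation p = 0.0021, rho = 0.78, permutation p = 0.00054) and r = 0.76 for *Slc18a3* (adjusted permutation p = 0.00486, rho = 0.83, permutation p = 0.00016). Within the lane pairs these were 0.85 and 0.76 for *Lhx8*, and 0.78 and 0.80 for *Slc18a3*.

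The pair of nested genes, *Chat* and *Slc18a3*, turned on 1 mouse. Over 16 mice r was 0.11 (permutation p = 0.692, adjusted p = 0.865) and rho 0.50 (permutation p = 0.0508). With congenic mouse 1 left out, r was 0.78 (adjusted permutation p = 0.00306) and rho 0.82. Lanes 5 and 6 gave r = -0.26 with that mouse and 0.74 without it, and lanes 7 and 8 gave 0.76. *Chat* and *Slc5a7* gave r = 0.63 (adjusted permutation p = 0.0424, rho = 0.63, permutation p = 0.0109) over all mice, 0.84 without congenic mouse 1, and 0.45 and 0.79 within the lane pairs. *Slc18a3* and *Slc5a7* gave r = 0.61 (adjusted permutation p = 0.0472, rho = 0.68, permutation p = 0.00489), and 0.52 and 0.86 within the lane pairs. After centring each genotype, *Slc18a3* and *Slc5a7* had r = 0.48 and did not pass (adjusted permutation p = 0.188), and without congenic mouse 1 as well r was 0.65 (adjusted permutation p = 0.0427). For *Chat* and *Slc5a7*, without the 2 mice farthest from the median of *Chat*, r was 0.74, and without those farthest from the median of *Slc5a7* it was 0.29.

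**Figure D5:**
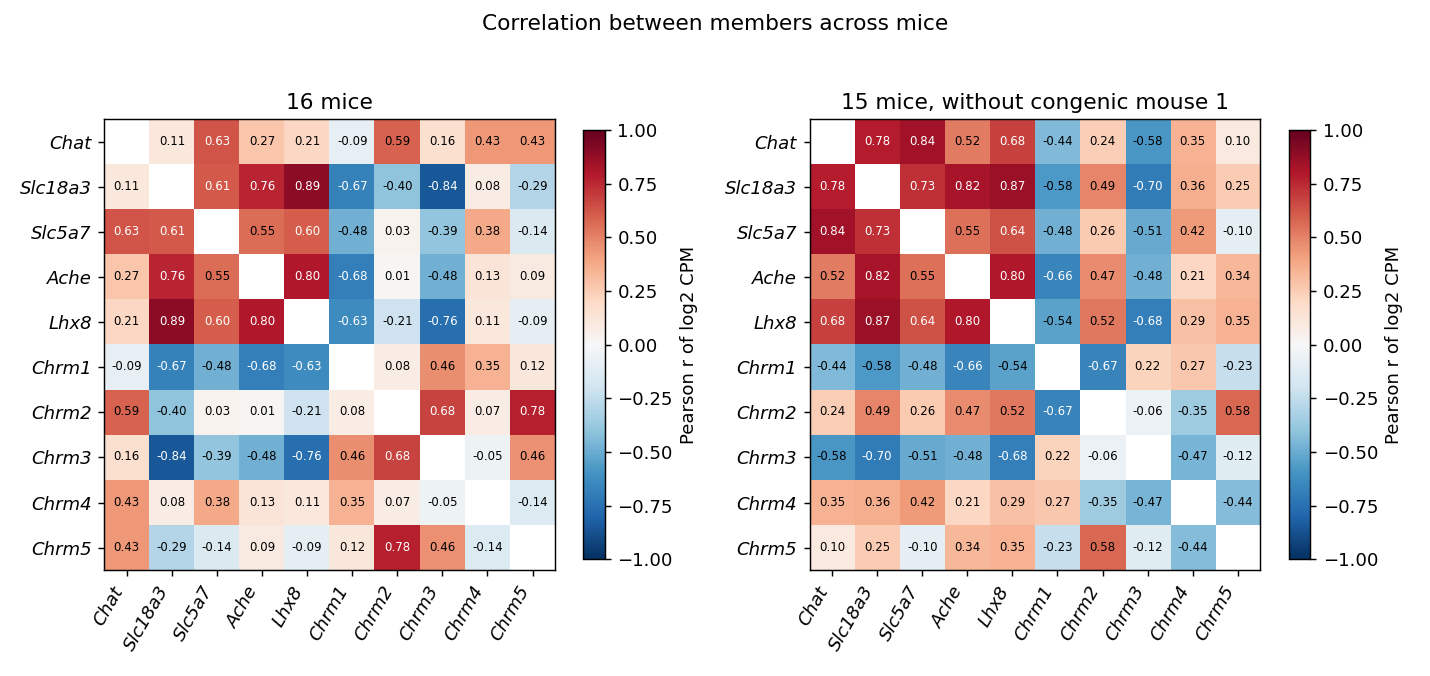
Pearson's r of log2 CPM between each pair of members across 16 mice (left) and 15 mice without congenic mouse 1 (right), on a colour scale from -1 to 1. The block of *Slc18a3*, *Slc5a7*, *Ache* and *Lhx8* is positive in both panels, and *Chat* joins it in the right panel, where its r with *Slc18a3* is 0.78 against 0.11 in the left.

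The negative pairs joined *Chrm3* or *Chrm1* to interneuron genes. *Slc18a3* and *Chrm3* gave r = -0.84 (adjusted permutation p = 0.0021, rho = -0.81, permutation p = 0.00016), which was -0.70 without congenic mouse 1 (adjusted permutation p = 0.0258), -0.66 without the 2 mice farthest from the median of *Slc18a3*, and -0.87 within each lane pair. *Lhx8* and *Chrm3* gave r = -0.76 (adjusted permutation p = 0.00486, rho = -0.76, permutation p = 0.00077), -0.68 without congenic mouse 1, and -0.79 and -0.83 within the lane pairs. Centred and without congenic mouse 1, neither pair passed (r = -0.61 and -0.50, adjusted permutation p = 0.0609 and 0.150). With *Chrm1*, r was -0.67 for *Slc18a3*, -0.68 for *Ache* and -0.63 for *Lhx8* over all mice, -0.81, -0.63 and -0.79 on lanes 5 and 6, and -0.50, -0.72 and -0.39 on lanes 7 and 8. Centred on the genotype means, *Lhx8* and *Chrm1* had r = -0.58 and did not pass (adjusted permutation p = 0.0800). Of these 3 pairs with *Chrm1*, only *Ache* had an adjusted permutation p under 0.05 (0.0322) without congenic mouse 1. Among the receptors, *Chrm2* and *Chrm5* gave r = 0.78 (adjusted permutation p = 0.00862) but rho = 0.41 (permutation p = 0.118), and r = 0.29 without the 2 mice farthest from the median of *Chrm2*, so that the relation rested on congenic mice 1 and 2. It was 0.87 on lanes 5 and 6, which include both, and 0.06 on lanes 7 and 8. *Chrm1* and *Chrm4* were not correlated at this number of mice (r = 0.35, adjusted permutation p = 0.329, rho = 0.32, permutation p = 0.232). In the 15 mice without congenic mouse 1, 8 positive and 4 negative pairs passed, and 8 of these were among the 11 found with all mice.

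Among 14198 other genes with a mean of at least 1 CPM, those most like a member across mice are given as a description, with no test. The 5 highest r for *Chat* over 16 mice were 0.84 for *Lgi4*, 0.81 for *Kansl1l*, 0.80 for *Itpkc*, 0.80 for *Unc13c* and 0.79 for *Otud7b*, and without congenic mouse 1, the lowest for *Chat*, they were 0.76, 0.71, 0.69, 0.69 and 0.68. Over the 15 mice without congenic mouse 1, *Slc10a4* had r = 0.85 with *Chat*, while over all 16 it had r = 0.06. For *Chrm4* the 5 were *Actn2* (0.93), *Sez6* (0.92), *Asic1* (0.91), *Pik3r4* (0.91) and *Rasgrp2* (0.90), and these lay between 0.90 and 0.94 without congenic mouse 1. For *Chrm1* they were *Epb4.9* (0.91), *Ptk2b* (0.88), *Lrrc4* (0.86), *Trpc6* (0.86) and *C2cd2l* (0.85), from 0.83 to 0.89 without that mouse. For *Chrm2* they were *Cpeb3* (0.96), *Stk24*, *Slc38a1*, *Rassf8* and *Katnal1* (0.95 each), and without congenic mouse 1 these lay between 0.78 and 0.85.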

How the data were processed

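Striatal RNA libraries of 8 B6.D2 congenic and 8 B6 mice were made with a stranded poly(A) kit and read as single ends. The authors aligned the reads with TopHat to mm10 and counted them per gene with HTSeq 0.6.1p1 in union mode, without strand, per their methods and the submitters' processing notes. The deposited counts, 1 table per mouse and lane, are not normalized and leave out reads with several alignments or on exons of more than 1 gene. Such filtering lowers genes with copies elsewhere. The rows that name no gene stayed out of library sizes: per mouse 61.4% to 68.3% of reads were on genes, 10.2% to 15.9% outside annotated exons, 19.5% to 27.3% with several alignments and 0.824% to 1.07% ambiguous. The authors also deposited tables of their own comparison, which hold log2 fold changes, mean log2 CPM, test statistics, p-values and FDRs, and which were not used.

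Lane files of a mouse were summed, since the 2 lanes of 15 mice differed by about sampling noise (chi-square per degree of freedom 0.997 to 1.05), and B6 mouse 7 had 1 lane file. Genes were filtered with filterByExpr, scaled by TMM and compared between genotypes by quasi-likelihood F tests (edgeR 4.0.16, R 4.3.3), and p-values were adjusted over all 15589 genes (Benjamini-Hochberg). The SE was the log2 fold change divided by the square root of F. Depth leaves counting error small for members other than *Chrm5* and *Chrm2*, which had 2 to 24 and 45 to 223 reads per mouse. The biological coefficient of variation was 13.0%. P-values measure the spread between these mice. Log2 CPM used a prior count of 0.5. RPKM used the union of GENCODE exons on mm9 (NCBIM37), or for *Slc18a3*, which had none there, the RefSeq span. Positions and promoters, from RefSeq on GRCm38.p6, were matched by symbol, and 9 of 10 members had a promoter. Correlations used 100000 resamples (exact enumeration for 8 mice; numpy, Python 3.11), with adjustment over 45 pairs of members and 70 pairs of member and score. The fits and correlations were tested on simulated data.

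The members and gene lists were chosen with earlier results of these data known. Genes named are the members, up to 4 genes with the smallest p of each list, the 5 genes most like *Chat*, *Chrm1*, *Chrm2* and *Chrm4*, and 4 striatal markers. *Prima1*, and *Slc10a4* as a gene like *Chat* over 15 mice, were picked with their values known. A gene that these rules name is not reported here and remains in the counts. Alternatives were other scalings, filters, tools, lanes, covariates, subsets and each mouse left out. The fits without both congenic mouse 1 and B6 mouse 8 and with the length trend, and the correlations without congenic mouse 1, were chosen after seeing the data.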

Additional observations from a re-analysis of the deposited data

Results flagged for a closer look

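In a group of 8, a mouse was set aside for a closer look when its gap to the nearest other mouse, as a share of the group's range, was over Dixon's critical value, a limit that chance passes in about 1 of 20 groups. Of 28 groups looked at, 5 passed, and none of the 5 was the level of a member. Congenic mouse 1 had 27.3% of its reads with several alignments (the next congenic mouse had 21.1%), 10.2% outside annotated exons (next 14.5%) and a correlation of -0.613 between its deviation and exon length (next -0.119). B6 mouse 8 had 11.3% of its reads outside annotated exons (next 14.8%) and 68.3% on genes (next 64.4%). The fits that bear on these measures are those that leave the mice out and 1 with the length trend as a covariate, in which *Chrm3* had a log2 fold change of -0.31 (edgeR unadjusted p = 0.0013) and *Chrm2* of -0.31 (0.054). Beyond these, their part in the results was not tested.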

How the results depend on the processing

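Of 326 values of the 10 members under 33 alternatives, 318 kept their direction and their side of an FDR of 5%, among them all 160 that left out 1 mouse, with log2 fold changes from 0.30 to 0.41 for *Lhx8* and from -0.35 to -0.22 for *Chrm3*. The count of genes at an FDR of 5% was small and moved readily, and the cause was not tested except where stated. Higher and lower in congenic mice, it was 3 and 17 with edgeR's likelihood ratio test, 4 and 27 with DESeq2, 2 and 2 with the length trend as a covariate and 3 and 4 without congenic mouse 1 and B6 mouse 8. It was 0 higher with the first lane file alone, with the covariate of cortical markers and on either lane pair alone, and 1 lower with the lane pair as a covariate. Leaving out each mouse in turn gave 1 to 2 higher and 0 to 2 lower. Lane files taken as separate samples, which counts all but 1 library 2 times, gave 463 higher and 605 lower, 1867 and 1738 at an unadjusted p under 0.05, and put 5 members past an FDR of 5%, with log2 fold changes of 0.29 for *Slc18a3*, 0.20 for *Slc5a7*, 0.19 for *Ache*, 0.37 for *Lhx8* and -0.30 for *Chrm3*.

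Genes at an unadjusted p under 0.05, 758 higher and 801 lower, became 231 and 120 with the cortical score, 1227 higher with the projection neuron score, 1422 lower with the length trend, and 256 and 244 on lanes 5 and 6 alone, where fewer mice entered. Members at that limit were 0 higher and 0 lower with the cortical score, 0 and 2 on lanes 5 and 6, and 0 lower on lanes 7 and 8, and 2 to 5 were higher when each mouse was left out. *Chat* reversed to -0.092 with the cortical score, and on lanes 7 and 8 *Chrm2* reversed to 0.032 and *Chrm5* to 0.34. Correlated pairs of members fell to 1 positive and 0 negative on lanes 5 and 6, 0 and 0 on lanes 7 and 8, where 8 mice entered, and 1 negative without the 2 mice farthest from the median. Correlated pairs of member and score were 12 without congenic mouse 1, 2 after centring each genotype on its mean, and 10 with both.

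Mice of the same number in both groups did not deviate together (correlations from -0.12 to 0.36, 3 of 8 over 0.1), and 1 of 8 congenic mice correlated best with its own number. With mouse number as a block, genes at an FDR of 5% were 0 and members at an unadjusted p under 0.05 were 3 higher and 1 lower. With the longest transcript in place of the union of exons, *Ache* was at 23.9 RPKM and *Lhx8* at 4.29 RPKM in B6 mice. *Chrm5* was not tested at 1 CPM in 8 mice, with single lane files or with lane files as separate samples.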
